A study of Mus musculus with 31 samples.

Results

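The mRNAs that were enriched on polysomes, or depleted from them, were measured in RPL10 R98S mutant cells, together with the spread of this measure over independent mutant clones. The cells were Ba/F3, a mouse lymphoid line that needs interleukin 3 to grow. They carried a retroviral human RPL10 cDNA with the R98S mutation of T cell acute lymphoblastic leukemia, and a short hairpin RNA against the endogenous mouse Rpl10. Each clone was a monoclonal culture. The R98S cultures with both a polysomal and a total mRNA library were taken, namely clone 11 with numbers 1 and 3 and clones 13 and 35 with numbers 1 to 3. These 8 cultures gave 16 of the 31 libraries of the series. The comparison group, RPL10 WT, carried the human cDNA without the mutation and the same knock-down, and held 6 cultures with both libraries from clones 28, 29 and 36. Polysomal RNA came from pooled sucrose gradient fractions with at least 2 ribosomes, and total mRNA from the same culture. The study describes the clones as biological replicates and the numbers as technical ones, so the spread over all 8 cultures mixes both kinds.

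An mRNA that is being read by several ribosomes at once sediments as a polysome. A transcript held back at initiation or bound in a repressed particle stays in the lighter fractions. Such a transcript, or one kept in the nucleus, is low in polysomal RNA compared with total RNA. What lowered the ratio of a gene was not tested. RPL10 (uL16) joins the large ribosomal subunit late in its assembly and lies close to the peptidyl transferase center.

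For R98S cultures, the polysomal libraries held 8831180 to 20754046 reads and the total mRNA libraries 11471068 to 22059792, and 5.61% to 6.58% of the reads fell on the top 10 genes of a library. The values were read counts divided by a size factor of the library, called normalised read counts here. Rpl10 itself had 901 to 2984 normalised read counts in total mRNA with a median of 1188, and 666 to 2046 with a median of 1117 in polysomal RNA. Of the sequence words of Rpl10, the short stretches that make up its annotated transcript, 85.4% also occurred in pseudogenes, and the human cDNA differs from the mouse gene, so this value does not check the genotype. The receptor subunits for interleukin 3 were abundant, with means of 93432 for Csf2rb and 631 for Il3ra in total mRNA. Cd79a and Cd79b, parts of the B cell receptor, were present, but the B lineage defining genes Ebf1, Pax5, Rag1 and Il7r had means under 1 in both fractions. A pair of total mRNA libraries stood apart. Over 184 genes that separated the genotypes at least 4-fold without overlap in numbers 1 and 3, the total mRNA of clones 13 and 35 of number 2 lay 35.2% and 34.5% of the way to WT on the log2 scale. The other R98S total mRNA libraries lay between -6.55% and 9.77%. The polysomal libraries of the same cultures lay at -3.46% and 8.32%, over 217 genes. The 8 markers of granulocytes and monocytes summed to 2399 and 1131 in the total mRNA of these clones in number 2 and to at most 887 in that of numbers 1 and 3. One of them, Ly6g, was at 0 in all R98S libraries. The median ratio of the 4 markers tested was -5.45 and -2.50 in number 2 and -1.06 to 1.07 in the other R98S cultures. The 4 mast cell and basophil markers tested had -2.41 and -2.08 in number 2 and -0.059 to 1.68 in the others. The total mRNA of the 6 markers listed for these cells summed to 20940 and 24305 in number 2 and to at most 25456 in numbers 1 and 3. Most of this sum was Gata2, with a mean of 19165 in total mRNA of R98S, so it does not show the level of the other markers. The 2 erythroid markers tested had median ratios of -2.50 and -1.09 in number 2 and -0.41 to 1.11 in the others. The part of these cells in the results was not tested. Counts without number 2 are given with the main counts.

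For each gene and culture, the polysomal to total ratio was log2(polysomal + 1) minus log2(total + 1). It was tested in 10627 of 41255 listed genes, those that averaged 10 or more in the polysomal as well as in the total table, with limma on the 8 paired values and Benjamini-Hochberg adjustment. At an adjusted p under 0.1, 1811 genes (17%) were higher in polysomal RNA and 5067 (47.7%) were lower. At least 2-fold differences were far more frequent on the lower side, with 1851 genes (17.4%) against 99 (0.932%). The polysomal and the total tables were normalized separately, so the zero of this scale has no absolute meaning. The median ratio of all genes was -0.27. Centred on the median protein coding gene, 3393 genes (31.9%) were higher and 3349 (31.5%) lower, so that the share of higher genes among called genes went from 26.3% to 50.3%. This share was 48.1% with TMM scaling and 56.8% with quantile normalization. The excess on the lower side thus depends on the scaling. Centring added a positive value to each ratio, so no gene called higher could lose that call through the shift alone. Past 2-fold, the centred counts were 496 (4.67%) higher and 1186 (11.2%) lower. In all 8 cultures, 324 genes lay at least 2-fold below the median protein coding gene, and 1 gene lay at least 2-fold above it. These counts depend on the size of the ratio as well as on its spread, so they do not show which side was more constant. Without number 2, whose total mRNA stood apart, 1837 genes were higher and 4720 lower. The count of higher genes was 883 without number 3, 1107 without clone 11 and 948 without clone 35. The cultures of a number resembled each other, so the calls of a list are also given with the correlation within numbers estimated, where 764 genes (7.19%) were higher and 3421 (32.2%) lower. With the mean of each number taken as 1 of 3 replicates, called number means in what follows, 201 genes (1.89%) were higher and 2535 (23.9%) lower. With the mean of each clone as 1 of 3 replicates, 2490 genes were higher and 5518 lower. That fit averages over the numbers within each clone, so the differences between numbers hardly enter its spread. The number of genes at least 2-fold higher was the least stable value, at 531 without number 1, 270 without number 2 and 17 without number 3. The number at least 2-fold lower was 1230 without number 3.

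Of the transcript features examined, coding length had the strongest relation to the ratio. Across the 10211 genes with a coding length, Spearman's rho was -0.66. Genes are not independent replicates, so this value is given as a description. Whole transcript length had a rho of -0.60, the 3' untranslated region -0.23, the 5' untranslated region -0.14, GC content -0.13 and the number of AUG triplets in the 5' untranslated region -0.10. In the shortest of 10 bins of coding length, from 114 to 543 bases, the median ratio was 0.27, with 335 genes higher and 118 lower of 1024. It was lower in each following bin of coding length and passed below zero from 1164 bases. In the longest bin, from 3441 bases, the median ratio was -1.39, with 5 genes higher and 972 lower of 1021.

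**Figure D1:**
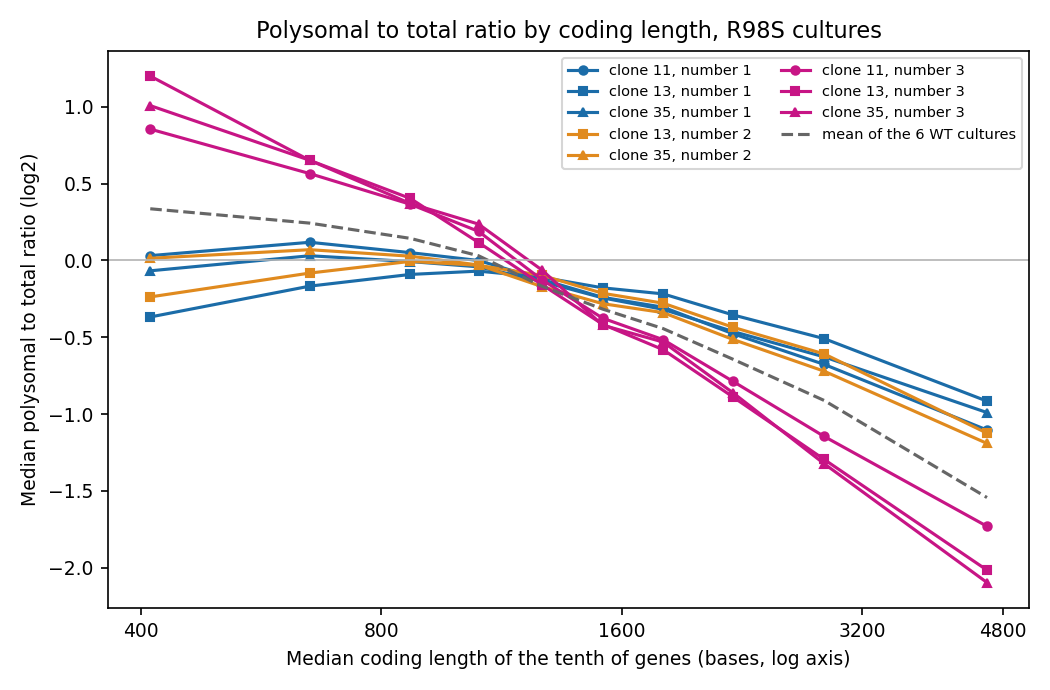
Median log2 polysomal to total ratio in each of 10 bins of coding length (x axis, bases, log scale; each bin holds a similar number of genes), for each of the 8 R98S cultures and for WT. The median of the R98S means went from 0.27 in the shortest to -1.39 in the longest bin, and the 3 cultures of number 3 had the steepest lines.

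The course over coding length differed between the replicate numbers. In numbers 1 and 2 the bin medians stayed between -0.37 and 0.12 over the 4 shortest bins and were lower in each longer one, whereas in number 3 they also fell through the shortest bins. The median of the shortest bin minus that of the longest bin was 1.13, 0.54 and 0.92 in clones 11, 13 and 35 of number 1, and 0.88 and 1.20 in clones 13 and 35 of number 2. It was 2.58, 3.22 and 3.11 in clones 11, 13 and 35 of number 3. The 3 cultures of number 3 lay above all others in R98S. The mean over R98S cultures was 1.70 ± 1.08 (SD, n = 8) and that over WT cultures 1.93 ± 1.26 (SD, n = 6), a difference that did not pass an exact two-sided permutation test (p = 0.764). Permuted within numbers, the difference was 0.11 (exact p = 0.567). Both p-values are as adjusted over 3 measures, and both permutations took cultures of the same clone as separate. The polysomal libraries of number 3 also had larger value totals and a wider spread over genes, with an SD of the ratio of 1.13 to 1.35 against 0.60 to 0.88 in numbers 1 and 2. With the trend on coding length removed within each culture, 2905 of 10211 genes (28.4%) were higher and 2748 (26.9%) lower.

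The lowest ratio of the named genes was that of Sptbn1. This gene, which encodes a non-erythroid beta spectrin (chromosome 11, 30099395 to 30268175, minus strand, GRCm38; coding length 7092 bases), had 4259 to 6825 normalised read counts in total mRNA with a median of 6094. In polysomal RNA it had 109 to 607 with a median of 474. The fractions did not overlap, and the 3 lowest polysomal values, 109 to 198, were those of number 3. The log2 ratio was -4.10 ± 0.26 (SE, n = 8 cultures, limma adjusted p = 5.99e-07), 17.2-fold lower. Its ratio was -4.02, -4.02 and -4.24 in clones 11, 13 and 35.

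Flna, which codes for an actin crosslinker, had a ratio of -3.75 ± 0.20. It had 3975 to 8108 normalised read counts in total mRNA and 330 to 777 in polysomal RNA. Sptan1, the alpha spectrin partner, had -3.64 ± 0.16. The actin scaffold Iqgap1 had -3.75 ± 0.15, the cytolinker Plec -3.58 ± 0.26, non-muscle myosin Myh9 -3.48 ± 0.20 and the integrin adaptor Tln1 -3.41 ± 0.17. Myh9 had 17602 to 34674 normalised read counts in total mRNA against 909 to 3816 in polysomal RNA, so it was not a rare mRNA in either fraction. Cad and Fasn, the multifunctional enzymes of pyrimidine and fatty acid synthesis, had -3.29 ± 0.16 and -3.29 ± 0.17. Each of these genes had a negative ratio in all 8 cultures. All had coding sequences in the longest bin, and with the trend on length removed their ratios were smaller but stayed negative, from -1.30 for Plec to -2.39 for Sptbn1.

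Some strongly depleted genes had shorter coding sequences. Leng8 had 1406 to 2531 normalised read counts in total mRNA and 66.9 to 272 in polysomal RNA, a ratio of -3.77 ± 0.23 and 13.6-fold lower. Its coding sequence had 2406 bases, and with the length trend removed its ratio was still -3.07. Gigyf1, whose protein belongs to a translational repressor complex, had -3.79 ± 0.27 and -2.83 with the trend removed. Rsrp1, which codes for an arginine and serine rich protein, had a coding length of 897 bases and a ratio of -2.67 ± 0.20 (limma adjusted p = 1.72e-06). Its total mRNA level was 4969 to 11157 and its polysomal level 852 to 1745. With the trend on length removed its ratio was -2.78.

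**Figure D2:**
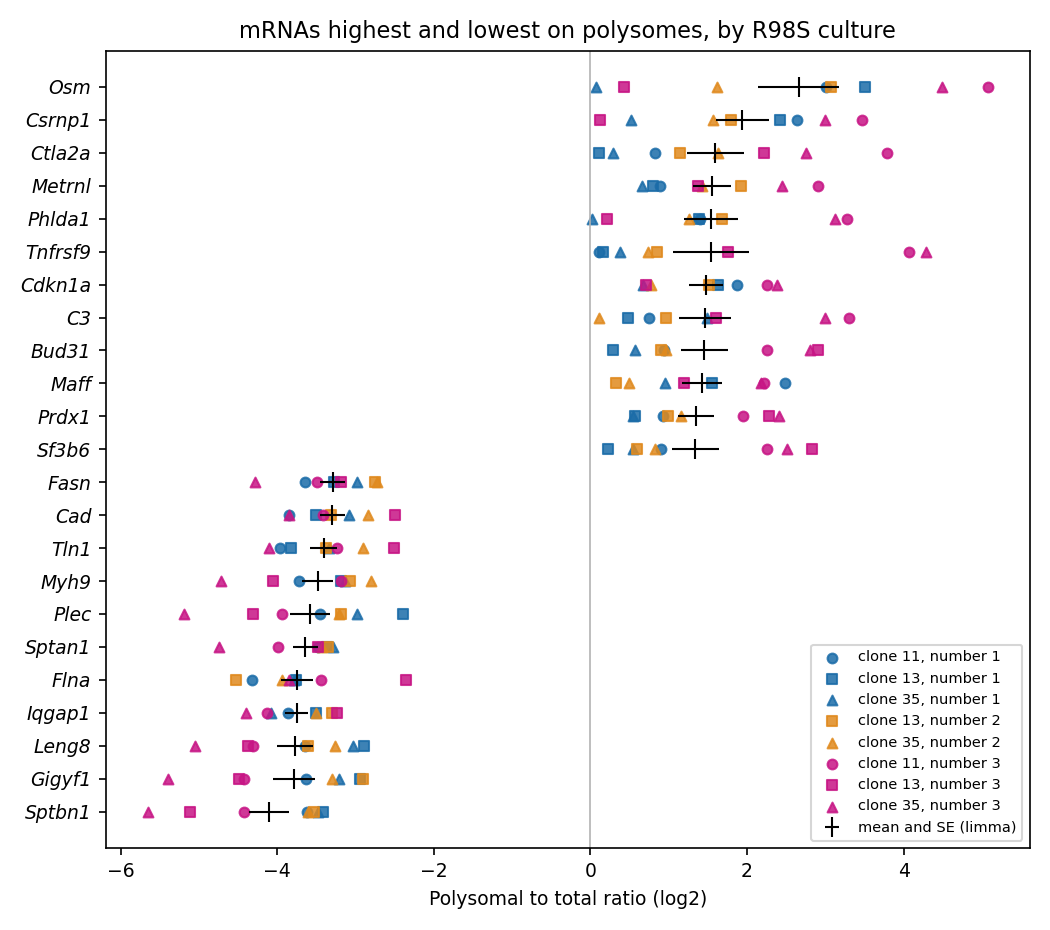
Log2 polysomal to total ratio of the named enriched and depleted protein coding genes in each of the 8 R98S cultures, with the mean and SE. The depleted genes lay between -4.10 (Sptbn1) and -3.29 (Fasn) and the enriched ones between 1.34 (Sf3b6) and 2.66 (Osm), with wider spreads among the enriched genes.

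Osm, the cytokine oncostatin M (chromosome 11, 4236420 to 4241026, plus strand, GRCm38; coding length 792 bases), had the highest ratio of the named genes with the same sign in all cultures, 2.66 ± 0.52 (SE, n = 8, limma adjusted p = 0.00155). In polysomal RNA it had 4772 to 10624 normalised read counts with a median of 5547. In total mRNA it had 314 to 6060 with a median of 621. Its polysomal level was rather even, while its total mRNA level spread widely. The total mRNA libraries of clone 35 number 1 and clone 13 number 3 were the high ones, with 6060 and 3829, and the ratio was accordingly 0.07 and 0.42 there against 1.62 to 5.08 in the other 6 cultures.

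The same cultures were high in total mRNA for other short-lived mRNAs. Fos, a subunit of the AP-1 transcription factor, had 1682 normalised read counts in the total mRNA of clone 35 number 1, 165 in that of clone 13 number 3 and 167 in that of clone 35 number 2. The other 5 total mRNA libraries had 11.0 to 29.0. Its polysomal level stayed between 212 and 494. The ratio was 2.57 ± 0.71 (limma adjusted p = 0.0104), positive in 7 of 8 cultures and -2.24 in clone 35 number 1. The cytokine signalling inhibitor Socs1 had 2.25 ± 0.39 (adjusted p = 0.000741 by limma), with ratios from -0.01 in clone 13 number 3 to 3.86 in clone 11 number 3. Cish, an inhibitor of the same family, had 1.96 ± 0.39 (limma adjusted p = 0.00189). Its total mRNA was 2224 in clone 35 number 1 and 3195 in clone 13 number 3 against 172 to 666 elsewhere, and its polysomal level was 1616 to 2624 throughout. Egr2, a zinc finger transcription factor, had 1.87 ± 0.49, and Csrnp1, a nuclear protein induced by axin, 1.94 ± 0.34. Without clone 35 number 1 and clone 13 number 3, 1310 genes were called higher and 4592 lower. This setting was chosen after the values had been seen.

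**Figure D3:**
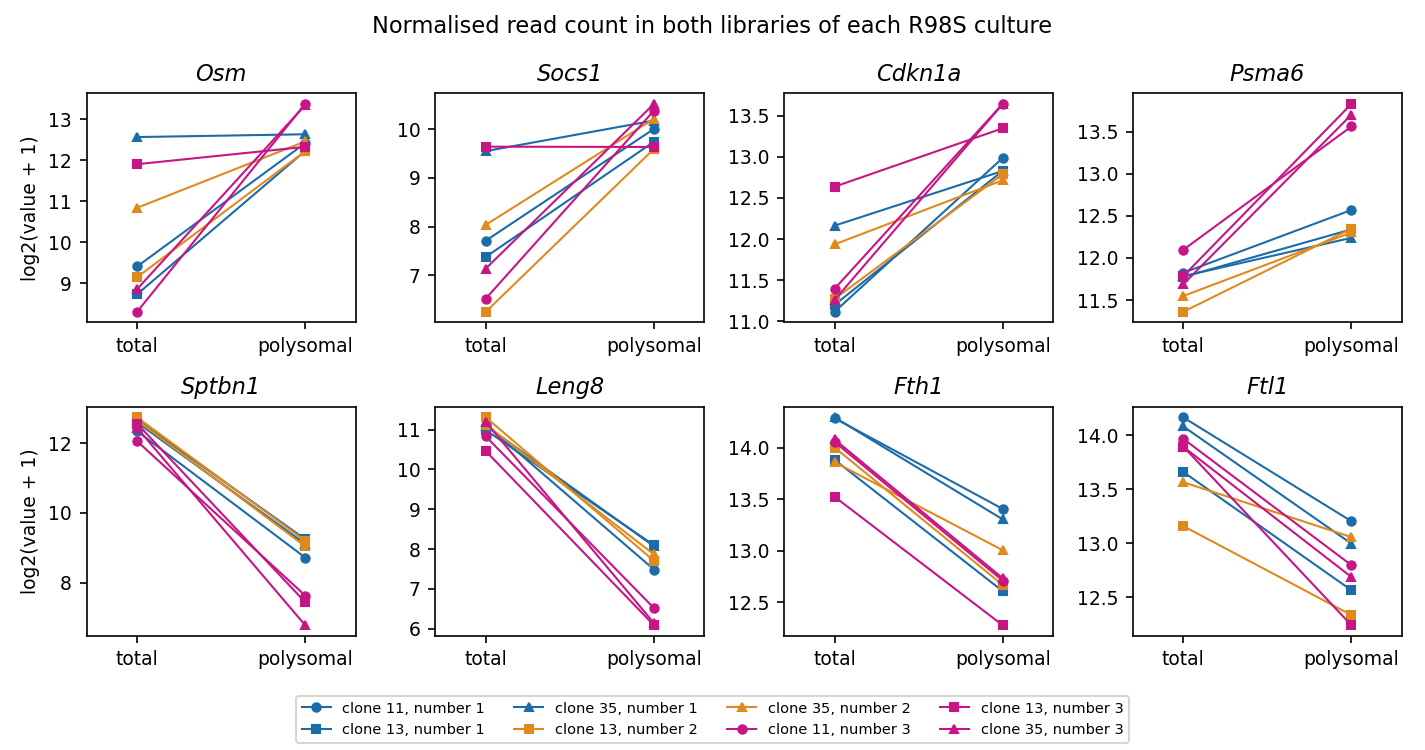
Normalised read count, as log2(value + 1), in the total and the polysomal library of each of the 8 R98S cultures for 4 enriched and 4 depleted genes, each panel with its own y axis and a line joining the libraries of a culture. For Osm, Socs1 and Cdkn1a the lines of clone 35 number 1 and clone 13 number 3 started high in total mRNA and were flatter than the others (Osm ratios of 0.07 and 0.42), while all lines fell for Sptbn1, Leng8, Fth1 and Ftl1.

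Of the 51 genes in the list of immediate early and short-lived regulators, 43 were tested, 17 were higher and 9 lower (5 and 5 with the correlation within numbers estimated, 10 and 5 with number means), beside 17% and 47.7% of all genes, with a median ratio of 0.10 beside -0.27 for all genes. The median per culture was lowest in clone 35 number 1, at -0.46, and highest in clone 11 number 3, at 0.69. Without clone 35 number 1 and clone 13 number 3 the list median was 0.28. The list did not move one way. Maff and Phlda1, both induced by stress and growth signals, had 1.43 ± 0.25 and 1.54 ± 0.34, and Cdkn1a, the cyclin dependent kinase inhibitor p21, had 1.48 ± 0.21. Other members of the list went the other way. Tnfaip3, an inhibitor of NF-κB signalling, had -1.82 ± 0.18, the transcriptional repressor Klf10 had -1.39 ± 0.24 and Nfkbia, which holds NF-κB in the cytoplasm, had -1.01 ± 0.15.

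Many mRNAs of this kind carry AU-rich elements, which shorten the life of an mRNA, in the 3' untranslated region. The nonamer TTATTTATT was searched on the mRNA strand in the annotated 3' untranslated regions, and it was found in 712 of 10063 genes (7.08%). The median ratio was -0.44 with it and -0.26 without it, with 85 genes (11.9%) higher and 422 (59.3%) lower among those that held it, beside 17% and 47.7% of all genes. With the trend on length removed the medians were -0.12 with it and 0.0050 without it. It stood in genes at both ends of the ratio. Sites from genes that were enriched (Fos, Cish, Csrnp1) and depleted (Hk2, Iqgap1) are shown, since they hold the same letters with opposite ratios, and the capitals mark the nonamer.
Fos, chr12:85477104-85477130 (plus strand): gttttcaatTTATTTATTaagatggat
Cish, chr9:107301378-107301404 (plus strand): atacagtatTTATTTATTtattctcct
Csrnp1, chr9:119972068-119972094 (minus strand): actctgaatTTATTTATTtttttatgt
Hk2, chr6:82725902-82725928 (minus strand): ttatacgagTTATTTATTccagactgt
Iqgap1, chr7:80711749-80711775 (minus strand): gtgcttacgTTATTTATTagctgtagc
All coordinates are of GRCm38 with the GENCODE M21 annotation. No match was found in the 3' untranslated region of Osm. A match describes the letters only.

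Other enriched genes included Prdx1. This peroxiredoxin gene, whose product removes hydrogen peroxide, had 4466 to 7081 normalised read counts in total mRNA and 9116 to 33686 in polysomal RNA. The fractions did not overlap, and the 3 polysomal libraries of number 3 were the high ones, at 27388 to 33686. Its ratio was 1.35 ± 0.23 (limma adjusted p = 0.000634), at 0.68, 1.07 and 2.21 in numbers 1, 2 and 3. The splicing proteins Bud31 and Sf3b6, with coding sequences of 435 and 378 bases, had 1.45 ± 0.30 and 1.34 ± 0.30. Metrnl, a secreted protein, had 1.55 ± 0.25 and Tnfrsf9, a costimulatory receptor, 1.54 ± 0.49. Ctla2a, a protease inhibitor, had 1.60 ± 0.37, but 30.1% of its sequence words also occurred elsewhere, Ctla2b included, and its reads may be shared. C3, the complement component, was the exception in length. Its coding sequence had 4992 bases, its ratio was 1.46 ± 0.33 and, with the length trend removed, 2.86.

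Of the lists described here, proteasome subunits had the highest median ratio. Of 42 subunits and regulators, 36 were higher and 2 lower, beside 17% and 47.7% of all genes, with a median ratio of 0.69. After centring 40 were higher and 2 lower, beside 31.9% and 31.5%. With the correlation within numbers estimated 28 were higher, and with the means of the numbers as 3 replicates 15 were higher and 1 lower. Psma6, an alpha ring subunit, had 2628 to 4380 normalised read counts in total mRNA with a median of 3513, and 4836 to 14581 in polysomal RNA with a median of 5650. The fractions did not overlap. Its ratio was 1.13 ± 0.20 (SE, n = 8, limma adjusted p = 0.000778), and 1.11, 1.20 and 1.08 in clones 11, 13 and 35. The ring subunits Psma1, Psma5 and Psmb3 had 1.10 ± 0.19, 1.07 ± 0.24 and 1.04 ± 0.17, and 54.5% and 55.8% of the sequence words of Psma5 and Psmb3 occurred elsewhere. The members that went the other way were the largest ones. Psmd1, a scaffold of the regulatory particle with a coding length of 2862 bases, had -0.95 ± 0.09, and the activator Psme4, with 5532 bases, had -0.54 ± 0.11. With the trend on length removed Psmd1 had -0.08 and Psme4 0.96, and the list median was 0.73. The list median was positive in each culture, from 0.26 in clone 35 number 1 to 1.33 in clone 13 number 3.

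Nuclear genes for mitochondrial proteins were enriched as well, but mainly in number 3. Of 76 mitochondrial ribosomal proteins tested, 55 were higher and 1 lower, beside 17% and 47.7% of all genes, with a median of 0.56. With the correlation within numbers estimated 33 were higher, and with the means of the numbers as 3 replicates 3 were higher. Their median was 0.00, 0.25 and 1.32 in numbers 1, 2 and 3, and 0.10 without number 3. The culture medians of number 3, 1.22 to 1.44, did not overlap those of the other numbers, -0.13 to 0.27. The shortest bin of coding length had a similar difference, with medians of 0.85 to 1.20 in number 3 and -0.37 to 0.03 in the others. With the length trend removed 52 members of the list were higher and 4 lower, beside 28.4% and 26.9% of all genes. The list median was then 0.38. Mrpl47, a protein of the large mitochondrial subunit, had 257 to 522 normalised read counts in total mRNA and 440 to 1646 in polysomal RNA, a ratio of 0.99 ± 0.23. Mrpl41 and Mrpl22 had 0.98 ± 0.27 and 0.98 ± 0.24, and 33.4% of the sequence words of Mrpl22 occurred elsewhere. Mrps24 was the member that was lower, at -0.28 ± 0.13 (limma adjusted p = 0.0871), close to the median of all genes, and became 0.064 with quantile normalization.

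Of 77 nuclear genes of oxidative phosphorylation, 40 were higher and 2 lower, beside 17% and 47.7% of all genes, with a median of 0.53. With the correlation within numbers estimated 26 were higher, and with the means of the numbers as 3 replicates 2 were higher. Cycs, the electron carrier cytochrome c, had 1.20 ± 0.36, with ratios of 2.36 to 2.82 in number 3 and -0.20 to 0.86 in numbers 1 and 2. Ndufa4 had 1.14 ± 0.41, with means of 0.19, 0.06 and 2.80 in numbers 1, 2 and 3. The large subunits Ndufs1 and Sdha had -0.77 ± 0.12 and -0.49 ± 0.12. The list median without number 3 was -0.02, above the median of all genes. With the length trend removed 44 members were higher and 6 lower, beside 28.4% and 26.9% of all genes, with a median of 0.37. The list of 13 mRNAs encoded in mitochondria, which are translated by ribosomes inside the organelle, had 9 members tested. None was higher and 5 were lower (2 with the correlation within numbers estimated, 3 with number means), beside 47.7% lower of all genes, with a median of -0.42. After centring 3 were lower, beside 31.5% of all genes. The ratio of mt-Nd1 was -1.45 ± 0.18, with -2.13 to -0.65 over the cultures, and mt-Nd4 had -0.72 ± 0.15. Of the sequence words of mt-Nd4 and Cycs, 62.2% and 28.2% occurred elsewhere.

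**Figure D4:**
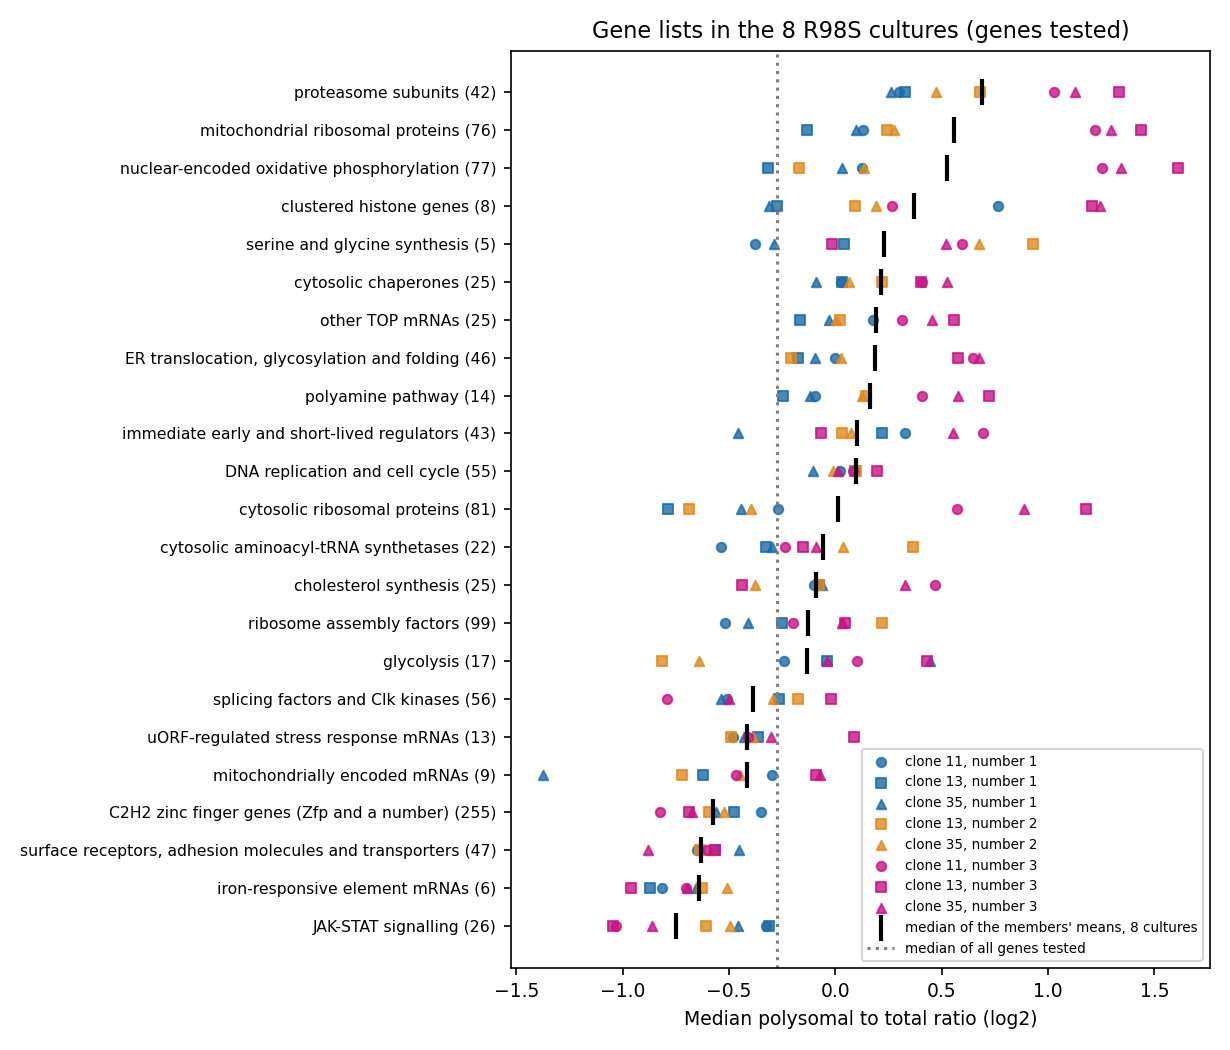
Median log2 polysomal to total ratio of each gene list in the 8 R98S cultures, with the median of all genes as a line. Proteasome subunits (0.69), mitochondrial ribosomal proteins (0.56) and oxidative phosphorylation (0.53) lay highest, JAK-STAT signalling (-0.75) and surface receptors (-0.63) among the lowest.

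Cytosolic ribosomal protein mRNAs start with a terminal oligopyrimidine (TOP) tract, through which the cell regulates their loading onto polysomes. All 81 members were tested, 5 were higher and 8 lower (0 and 4 with the correlation within numbers estimated, 0 and 2 with number means), beside 17% and 47.7% of all genes, and their median ratio was 0.01. After centring, 18 were higher and 2 lower, beside 31.9% and 31.5%. With the trend on length removed, 3 were higher and 36 lower, beside 28.4% and 26.9% of all genes, with a median of -0.22, below that of other genes of their coding length. The list turned direction between numbers. Its median was -0.47, -0.55 and 0.89 in numbers 1, 2 and 3, and 77 of the 81 members passed the test for a difference between numbers, beside 59.2% of all genes. The clones had medians of 0.15, -0.07 and 0.02. Rpl7 had 30119 to 55735 normalised read counts in the polysomal RNA of numbers 1 and 2 and 69296 to 85820 in that of number 3, with a ratio of 0.52 ± 0.18 (limma adjusted p = 0.0328). Rplp0, the stalk protein, was lower in each culture, from -0.84 to -0.26, with a ratio of -0.50 ± 0.12 (limma adjusted p = 0.00663). Of the sequence words of Rpl7 and Rplp0, 53.3% and 41.8% occurred elsewhere. Rps18 had -2.07 ± 0.19, but 86.7% of its sequence words occurred in other genes, pseudogenes included, and this value is uncertain. Rpl10 had a ratio of -0.30 ± 0.30 (limma adjusted p = 0.409), with means of -0.92, -1.05 and 0.83 in numbers 1, 2 and 3.

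Of 25 other TOP mRNAs tested, which code for translation factors and related proteins, 10 were higher and 6 lower (6 and 5 with the correlation within numbers estimated, 1 and 3 with number means), beside 17% and 47.7% of all genes, with a median of 0.19. Once the length trend was removed, 12 were higher and 4 lower, beside 28.4% and 26.9%. Npm1, the nucleolar chaperone nucleophosmin, had 0.99 ± 0.22, and Btf3, a subunit of the nascent polypeptide associated complex, 0.90 ± 0.27. The initiation factor subunit Eif3a had 12959 to 19530 normalised read counts in total mRNA and 1590 to 4602 in polysomal RNA, a ratio of -2.34 ± 0.16. The elongation factor Eef2 had -1.0 ± 0.17 and the helicase Eif4a2 -0.65 ± 0.14. Of the sequence words of Npm1, Btf3 and Eif4a2, 40.9%, 30.4% and 25.8% occurred elsewhere.

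Iron-responsive elements are RNA hairpins that, when bound by iron regulatory proteins in a 5' untranslated region, hold back translation. Of 10 such mRNAs, 6 were tested, none was higher and 5 were lower (3 with the correlation within numbers estimated and with number means), beside 47.7% lower of all genes, with a median ratio of -0.64. After centring 3 were lower and none higher, beside 31.5% and 31.9% of all genes. With the trend on length removed 3 were lower, beside 26.9% of all genes, and the list median was -0.11. Fth1, the ferritin heavy chain (chromosome 19, 9980598 to 9985098, plus strand), had 11768 to 20077 normalised read counts in total mRNA with a median of 16708, and 4953 to 10844 in polysomal RNA with a median of 6745. The fractions did not overlap. Its ratio was -1.16 ± 0.11 (SE, n = 8, limma adjusted p = 8.42e-06), from -1.35 to -0.86 over the cultures. Its coding sequence has 549 bases, close to the limit of the shortest bin, and with the length trend removed its ratio was -1.41. Ftl1, the ferritin light chain, had -1.06 ± 0.13, although 78.9% of its sequence words occurred in other loci. Slc11a2 and Cdc14a, which carry the element in the 3' untranslated region of some transcripts, had -0.33 ± 0.11 and -0.31 ± 0.11, close to the median of all genes, and turned positive with quantile normalization (0.054 and 0.057) and with the length trend removed (0.042 and 0.11).

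The hairpins of both ferritin mRNAs are printed because these mRNAs share a low ratio and a loop, with CAGTGN of the loop in capitals.
Fth1, chr19:9982732-9982760 (plus strand): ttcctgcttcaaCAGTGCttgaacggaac
Ftl1, chr7:45459779-45459807 (minus strand): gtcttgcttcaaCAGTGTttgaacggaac
The search on the mRNA strand was for a C, 5 bases of any kind and the letters CAGTGN, with 5 bases on either side of the loop that could pair, G with U allowed. It matched in 12 of 9991 annotated 5' untranslated regions (0.12%), whose median ratio was -0.13, and in 59 of 10063 3' untranslated regions (0.586%), whose median was -0.43. In the 3' untranslated region of Tfrc, the transferrin receptor, 4 matches were found, and one is shown beside the ferritin loops.
Tfrc, chr16:32631219-32631247 (plus strand): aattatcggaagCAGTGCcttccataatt
Tfrc had a ratio of -0.35 ± 0.18, which did not pass the test (limma adjusted p = 0.107), with 0.21 in number 3 against -0.81 and -0.51 in numbers 1 and 2.

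Of 47 surface receptors, adhesion molecules and transporters tested, 4 were higher and 31 lower (1 and 22 with the correlation within numbers estimated, 0 and 17 with number means), beside 17% and 47.7% of all genes, with a median of -0.63. After centring 8 were higher and 22 lower, beside 31.9% and 31.5% of all genes. Once the length trend was removed, 4 were higher and 19 lower, beside 28.4% and 26.9%, with a median of -0.25. Cxcr4, the chemokine receptor, had -2.11 ± 0.22, Ptprc, the phosphatase CD45, -1.93 ± 0.14 and Slc38a2, an amino acid transporter, -1.85 ± 0.15. Cxcr4 kept this value with the length trend removed (-2.10), whereas Ptprc had -0.77. Cd48, a small adhesion molecule, had 0.76 ± 0.19. Of 26 JAK-STAT members, 3 were higher and 20 lower (2 and 16 with the correlation within numbers estimated, 2 and 10 with number means), beside 17% and 47.7% of all genes, with a median of -0.75. After centring 5 were higher and 16 lower, beside 31.9% and 31.5% of all genes. The transcription factor Stat2 had 595 to 1001 normalised read counts in total mRNA and 85.1 to 227 in polysomal RNA, a ratio of -2.49 ± 0.20. Jak3, a kinase of cytokine receptors, had -2.21 ± 0.19, and Stat3 and Stat5a had -1.48 ± 0.15 and -1.48 ± 0.19. With the length trend removed 3 were higher and 8 lower, beside 28.4% and 26.9% of all genes, and the list median was -0.18. The targets and inhibitors in the list, Socs1, Cish and the kinase Pim1 (0.48 ± 0.16), were the members that were higher. The interleukin 3 receptor subunits Csf2rb, Csf2rb2 and Il3ra had -0.79 ± 0.22, -0.95 ± 0.22 and -0.57 ± 0.12, and Csf2rb had 0.014 with the length trend removed.

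Of 56 splicing factors and Clk kinases, 12 were higher and 31 lower (4 and 25 with the correlation within numbers estimated, 1 and 24 with number means), beside 17% and 47.7% of all genes, with a median of -0.39. After centring 19 were higher and 25 lower, beside 31.9% and 31.5% of all genes. The 4 lowest members were Srrm2, Rsrp1 (-2.67), Son and Pnisr. Srrm2, a protein of nuclear speckles, had 12323 to 20124 normalised read counts in total mRNA and 782 to 3176 in polysomal RNA, with a ratio of -3.0 ± 0.24. Son, its partner in the speckles, had -2.52 ± 0.14, and Pnisr had -2.51 ± 0.16 with a shorter coding sequence and -1.80 with the length trend removed. The small RNA binding proteins Hnrnpc and U2af1 had 0.73 ± 0.12 and 0.67 ± 0.17, and 59.4% of the sequence words of U2af1 occurred elsewhere. Zinc finger genes of the C2H2 class, chosen by symbol, were mostly lower. Of 255 tested, 8 were higher and 181 lower (4 and 115 with the correlation within numbers estimated), beside 17% and 47.7% of all genes, with a median of -0.57. After centring 20 were higher and 126 lower, beside 31.9% and 31.5%. With the length trend removed 26 were higher and 91 lower, beside 28.4% and 26.9%, and their median was -0.18. With the means of the numbers as 3 replicates, 2 were higher and 96 lower.

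Of 99 ribosome assembly factors, 28 were higher and 39 lower (18 and 27 with the correlation within numbers estimated, 7 and 23 with number means), beside 17% and 47.7% of all genes, with a median of -0.13. Once the length trend was removed, 51 were higher and 15 lower, beside 28.4% and 26.9%. Rpf2, which brings 5S RNA into the large subunit, and Utp11l, a factor of the small subunit, had 1.12 ± 0.21 and 1.02 ± 0.16. Utp20 and the polymerase I subunit Polr1a had -2.82 ± 0.17 and -2.80 ± 0.14. Of 55 genes of DNA replication and cell cycle, 25 were higher and 23 lower (18 and 15 with the correlation within numbers estimated, 10 and 11 with number means), beside 17% and 47.7% of all genes. The kinase Cdk1 had 0.96 ± 0.12, and the polymerase subunit Pole and the proliferation antigen Mki67 had -2.41 ± 0.11 and -2.24 ± 0.18. Mki67 had -0.28 with the length trend removed.

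Of 17 glycolytic genes, 6 were higher and 6 lower (3 and 5 with the correlation within numbers estimated, 0 and 3 with number means), beside 17% and 47.7% of all genes. Pgam1 and Tpi1 had 1.19 ± 0.26 and 0.99 ± 0.23, with means of 0.04 and 0.04 in number 2, and hexokinase Hk2 had -2.69 ± 0.16. The list median was 0.05, -0.78 and 0.15 in numbers 1, 2 and 3. Both total mRNA libraries that stood apart belong to number 2. Their part in the list median was not tested. The WT cultures had list medians of -0.49 and -0.84 in number 2 and of -0.75 to 0.32 in the other numbers. Of the sequence words of Pgam1, 41.5% occurred elsewhere. Of 22 cytosolic aminoacyl-tRNA synthetases, 5 were higher and 9 lower (4 and 7 with the correlation within numbers estimated, 1 and 6 with number means), beside 17% and 47.7% of all genes, and Lars had -2.34 ± 0.19. Once the length trend was removed, 11 were higher and 2 lower, beside 28.4% and 26.9%. Of 25 cholesterol synthesis genes, 6 were higher and 7 lower (1 and 6 with the correlation within numbers estimated, 1 and 5 with number means), beside 17% and 47.7% of all genes. Of 25 cytosolic chaperones, 12 were higher and 5 lower (5 and 5 with the correlation within numbers estimated, 2 and 1 with number means), beside 17% and 47.7% of all genes, with Dnaja1 at 0.79 ± 0.16 and Ahsa1 at 0.68 ± 0.13. Of 46 genes of the endoplasmic reticulum, 17 were higher and 8 lower (9 and 5 with the correlation within numbers estimated, 1 and 4 with number means), beside 17% and 47.7% of all genes. The signal peptidase subunit Spcs1 had 1.08 ± 0.32 and the glycosyltransferase Stt3a -1.88 ± 0.18.

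In serine and glycine synthesis, 2 of 5 genes were higher and 1 lower, beside 17% and 47.7% of all genes. These counts were 2 and 1 with the correlation within numbers estimated, and 1 and 0 with number means. Psph, which makes serine from phosphoserine, had 123 to 452 normalised read counts in total mRNA and 370 to 803 in polysomal RNA, a ratio of 0.99 ± 0.25. Its ratio was 0.06, 1.70 and 1.45 in numbers 1, 2 and 3. Without number 2, whose total mRNA libraries stood apart, it was 0.75 and passed the test. Psat1 had 0.48 ± 0.15 and Shmt2 -0.56 ± 0.14, and Phgdh, the first enzyme of the pathway, had 0.23 ± 0.19 (limma adjusted p = 0.305), with 63.1% of its sequence words found elsewhere. Of 14 polyamine genes, 3 were higher (1 with the correlation within numbers estimated, 0 with number means), beside 17% of all genes, and none was lower. After centring 12 were higher and none lower, beside 31.9% and 31.5% of all genes. Eif5a had 0.51 ± 0.17 and spermine synthase Sms 0.49 ± 0.16. Of the sequence words of Sms, 28.7% occurred elsewhere. Of 13 stress response mRNAs with upstream reading frames, 1 was higher and 7 lower (0 and 6 with the correlation within numbers estimated, 0 and 3 with number means), beside 17% and 47.7% of all genes. After centring 3 were higher and 3 lower, beside 31.9% and 31.5% of all genes. Atf4, the transcription factor of the integrated stress response, had 0.57 ± 0.27 (limma adjusted p = 0.0934), with -0.42, 0.66 and 1.51 in numbers 1, 2 and 3. The arginine transporter Slc7a1 and the synthetase Eprs had -1.70 ± 0.23 and -1.81 ± 0.13.

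Few noncoding RNAs passed the level filter. None of 22 nuclear noncoding RNAs was tested. Of 23 noncoding hosts of snoRNAs, 3 were tested and all 3 were lower (1 with number means), beside 47.7% of all genes (23.9% with number means). The 3 hosts included Snhg7 with -1.01 ± 0.14 and Snhg1 with -0.82 ± 0.26. The call of Snhg1 was lost after centring (limma adjusted p = 0.101). Snhg1 had 1292 to 3184 normalised read counts in total mRNA and 511 to 2701 in polysomal RNA, with means of -1.61, -0.97 and 0.07 in numbers 1, 2 and 3. Of 25 lincRNAs, 4 were higher and 6 lower (1 and 2 with the correlation within numbers estimated), beside 17% and 47.7% of all genes, with a median of -0.37. Of 21 transcribed unprocessed pseudogenes, 13 were lower (10 with the correlation within numbers estimated), beside 47.7% of all genes, and none higher, such as Pisd-ps1 with -2.32 ± 0.21 and Tmem181b-ps with -1.80 ± 0.11, which had 39.4% of its sequence words elsewhere. The 178 processed pseudogenes tested had a median of 0.09, with 31 higher and 17 lower (8 and 7 with the correlation within numbers estimated, 4 and 5 with number means), beside 17% and 47.7% of all genes. The most enriched were Gm5611 with 1.02 ± 0.20, Pcna-ps2 with 0.90 ± 0.17 and Gm12696 with 0.85 ± 0.13. Of their words, 43.7%, 63.8% and 42.6% occurred elsewhere, in loci that included Npm1, Pcna and Hnrnpc, respectively. These genes are reported as uncertain. Of 70 clustered histone genes, 8 were tested, 2 were higher (1 with the correlation within numbers estimated), beside 17% of all genes, and none lower.

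No gene passed the test for a difference between clones, and 6290 passed it for a difference between replicate numbers. Without number 3 the latter count was 1426. A limma F test over the 3 clones called 0 of 10627 genes (0%), with 17 genes at an unadjusted p under 0.05. An edgeR test of the fraction by clone interaction on recovered reads also called 0, with 23 at an unadjusted p under 0.05. With the number added as a block, limma and edgeR each called 0 genes, and each gave 262 genes at an unadjusted p under 0.05. By chance 531 of the genes tested would lie under that value, so these tests gave fewer small p-values than chance would. Without the block, the differences between numbers were part of the spread within clones. The count of 0 therefore does not show that the clones had the same ratio. The test over the 3 numbers called 6290 genes (59.2%), and 5801 with the clone as a further term. In the 6 cultures of numbers 1 and 3, which hold all 3 clones, the number took 63.3% of the variance of the ratio over genes, the clone 16.9% and the rest 19.7%. The shares were not adjusted for how many levels each term had, and that of the clone was below that of the rest. The median absolute difference between numbers 3 and 1 was 0.61 and the median SD of the 3 clone means 0.17. The former is a difference between means and the latter an SD of means, so these values are not on the same scale. Across genes, the ratios of cultures with the same number correlated at r = 0.73 to 0.88, those of cultures of the same clone at 0.38 to 0.69 and those that shared neither at 0.46 to 0.70. What the cultures of a number share beyond it, such as a gradient run or a sequencing run, is not in the labels. With the mean of each number taken as 1 of 3 replicates, the call of the mean ratio was lost for 44 named genes. In the lists of mitochondrial and ribosomal proteins and TOP mRNAs these included Mrpl41, Mrpl22, Mrps24, Cycs, Ndufa4, Sdha, Rplp0, Rpl7, Npm1 and Btf3. In the metabolic, stress and endoplasmic reticulum lists they included Sms, Eif5a, Pgam1, Tpi1, Psat1, Shmt2, Atf4 and Spcs1. Others were Tnfrsf9, Cd48, Pim1, Csf2rb, Csf2rb2, Il3ra, Cd79a, Cd79b, Psme4, Slc11a2, Cdc14a, U2af1, Snhg1, Mif, Nop10, Polr2b, Rab37 and Tmc4.

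**Figure D5:**
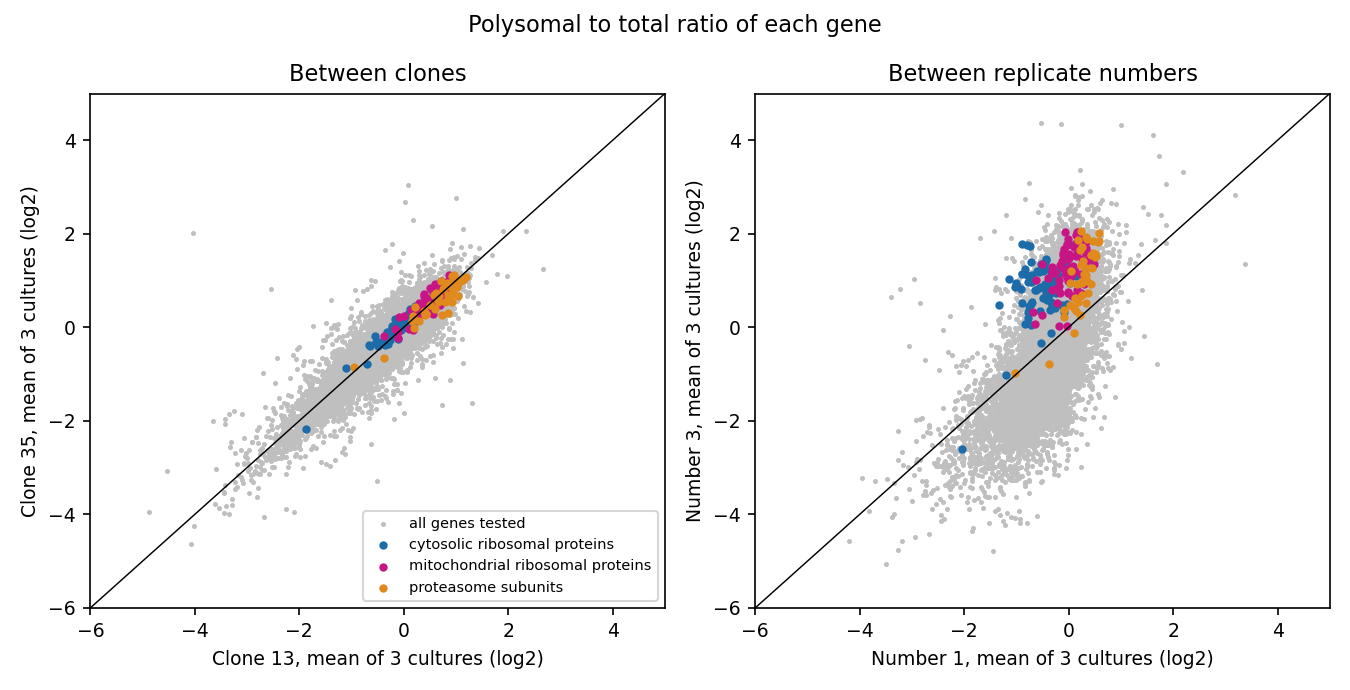
Log2 polysomal to total ratio of each gene tested (grey points) and of 3 gene lists (coloured), on the left as the mean of clone 13 against that of clone 35 and on the right as the mean of number 1 against that of number 3, with the line of equal values. The points lay along the line between clones and off it between numbers, where the cytosolic ribosomal proteins had medians of -0.47 in number 1 and 0.89 in number 3.

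Single genes illustrate the range. Trp53, the tumor suppressor p53, had the smallest p of the clone test with the replicate block among genes whose clone ranges did not overlap. Its ratio was 0.18, 0.87 and 0.63 in clone 13, -0.39 and -0.35 in clone 11, and -0.12, 0.05 and -0.19 in clone 35, with the highest values in clone 13 and the lowest in clone 11. Its polysomal level was 4095 to 4776 in clone 13 and 2083 to 2665 in the others, with unadjusted p = 0.0263 by limma's F test and 0.00418 with the replicate block, neither of which passed adjustment. Fosl2, an AP-1 subunit, had clone means of 1.02, -0.67 and 0.26 in clones 11, 13 and 35. Of 8814 genes that averaged 100 or more in each fraction, 37 had clone ranges that did not overlap, and 0% of all genes were called for the clone.

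For the numbers, Mif, a cytokine with a coding sequence of 348 bases, had 2880 to 5190 normalised read counts in the polysomal RNA of numbers 1 and 2 and 16816 to 19990 in that of number 3. Its total mRNA level was 2928 to 4450 throughout. The ratio was 0.12, -0.34 and 2.52 in numbers 1, 2 and 3 (limma adjusted p = 7.87e-05 for the number). Of its sequence words, 51.1% occurred elsewhere. Nop10, a small protein of the pseudouridine RNPs, had -0.24, 0.14 and 2.19. Without number 3 the mean ratios of Mif and Nop10 were -0.068 and -0.089. Trim56, a ubiquitin ligase, went the other way with -0.93, -1.19 and -4.09. Hdac7, a histone deacetylase, had 0.06, -2.50 and -2.0.

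Most of this pattern was shared with WT cells. The mean ratio of R98S and of WT cultures correlated across the 10627 genes at r = 0.91 and rho = 0.91, a description over genes. Sptbn1 had -4.63 in WT, Fth1 -1.16, Prdx1 1.89 and Psma6 1.24, and the difference from R98S did not pass the test for any of them. The limma test of the difference, 8 against 6 cultures, called 4 genes higher in R98S (0.0376%) and 0 lower (0%). It had no term for the clone, so cultures of the same clone counted as separate and its p-values are over cultures, not clones. Number 3 held 3 of the 8 R98S and 3 of the 6 WT cultures. With a pseudocount of 5, Rab37 and Polr2b passed, with adjusted p = 0.0306 and 0.0956 by limma, and BC035044 and Tmc4 did not, at 0.382 and 0.146. Without number 2, Rab37 passed with an adjusted p of 0.0763 by limma, and the other 3 did not, at 0.107 to 0.438. Polr2b, the second subunit of RNA polymerase II, had a ratio of -0.47 in R98S and -1.86 in WT, a difference of 1.40 ± 0.23 (SE, adjusted p = 0.0901 by limma). Its ratios were -0.90 to 0.01 in the R98S cultures and -2.55 to -1.04 in the WT cultures, without overlap. The GTPase Rab37 had -0.71 to 0.01 in R98S and -2.16 to -1.15 in WT, a difference of 1.28 ± 0.18 (limma adjusted p = 0.0297). Tmc4 had a difference of 1.81 ± 0.31 (adjusted p = 0.0901 by limma), with 1 R98S culture, clone 13 number 2 at -1.84, as low as the highest WT culture at -1.80. BC035044 had 1.88 ± 0.33 (limma adjusted p = 0.0914) at levels of 12.2 to 44.1 in R98S. When the number was added as a block, 50 genes differed, 41 higher in R98S (0.386%) and 9 lower (0.0847%). The 4 genes called without the block were among those higher. The 50 genes also included Cd79b, by 0.89, and C3. Its R98S ratios were 0.11 to 3.31 and its WT ratios -3.18 to 1.88, which overlap, with a difference of 2.35 ± 0.67 (adjusted p = 0.594 by limma) and of 2.66 with the block (adjusted p = 0.00826).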

How the data were processed

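Per the labels and the study's methods, poly(A) RNA libraries were made with a stranded kit from total RNA and from pooled polysomal fractions. The authors removed the leading base of each read, removed rRNA and tRNA reads with Bowtie2, aligned with TopHat2 2.0.11 to mm10 (GRCm38), kept primary alignments with a mapping quality of at least 10 and counted reads over exons (HTSeq is in the submitters' processing notes). The strand setting and the annotation are not given in the sources used here. The deposited values are a signal of read counts divided by a DESeq2 size factor, scaled separately for the polysomal and the total table, from which whole reads were recovered.

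The deposited signal was analysed as log2(value + 1) with limma 3.58.1 in R 4.3.3. Genes needed a mean of at least 10 in each table and were called at an adjusted p under 0.1, with Benjamini-Hochberg adjustment over all genes tested. A p-value measures the spread between these cultures, which may be partly technical. Fits were tested on simulated data, whose outcomes are not given here. edgeR 4.0.16 and DESeq2 1.42.0 on recovered reads, other scalings, filters, replicate structures and left-out cultures were the alternatives. Transcript features, element searches and shared sequence words came from GRCm38 with GENCODE M21, 1 transcript a gene with the longest coding sequence, and 36776 of 41255 symbols matched directly and 1003 through an older symbol. A pyrimidine start was not used here as a feature, since its letters were too common among all annotated starts. Interval estimates from reads cover counting error only and are not given for single libraries.

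Named genes were up to 12 protein coding and 6 other genes per direction with the largest ratio, the same sign in all 8 cultures and an average of 100 or more in each table, members of the lists (any of a list up to 25, otherwise up to 4 per direction and those against the median), up to 6 genes per clone and number test with clone ranges that do not overlap for the former, Rpl10 and the genes called against WT. Some genes and sequences are not reported here. The members, lists and rules were chosen with earlier results of these data known.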

Additional observations from a re-analysis of the deposited data

Results flagged for a closer look

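Of 178 sets of 8 culture values tested for a sample far from the others (Dixon's test), 5 were picked out, where chance alone picks out about 1 in 20. The ratio of mt-Atp8 was -4.83 in clone 35 number 1, with the other cultures between -1.97 and -0.50. Hnrnpc had 1.41 and its pseudogene Gm12696 had 1.59 in clone 35 number 3, with the others at 0.50 to 0.81 and 0.51 to 1.00. The median of the stress response mRNAs with upstream reading frames was 0.088 in clone 13 number 3 and -0.49 to -0.30 elsewhere. The median of the surface receptors was -0.88 in clone 35 number 3 and -0.65 to -0.45 elsewhere.

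The ratio differed between R98S and WT cultures for BC035044 by 1.88, for Polr2b by 1.40, for Rab37 by 1.28 and for Tmc4 by 1.81, all higher in R98S. With a pseudocount of 5 BC035044 and Tmc4 no longer passed, and without number 2 Rab37 alone of these still did. With the number as a block BC035044, Polr2b, Rab37 and Tmc4 all passed (limma adjusted p = 0.0454, 0.00185, 0.00122 and 0.00826). Cultures of the same clone counted as separate in these tests.

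The ratio differed between the replicate numbers of R98S, and the highest minus the lowest number mean was 2.97 for Ccdc58, 2.87 for Mif, 2.43 for Nop10, 3.16 for Trim56, 2.79 for Slirp and 2.56 for Hdac7. Of the exon bases of Slirp, 97.8% overlap genes on the other strand. Causes were not tested.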

How the results depend on the processing

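The zero of the ratio is set by the scaling, so counts per direction moved with it. Genes called higher, and of these at least 2-fold higher, were 3225 and 416 with TMM scaling, 3208 and 415 with edgeR with the culture as a block, and 3393 and 496 when centred, where 3349 were lower and 1186 at least 2-fold lower. With quantile normalization they were 3869, 2938, 567 and 1004 (higher, lower, 2-fold higher, 2-fold lower), and with DESeq2 with the culture as a block 3576, 3346, 515 and 1146. With the length trend removed, 2905 were higher, 2748 lower and 445 at least 2-fold lower. The centred ratios of lists and named genes, the length-removed setting and the edgeR test between clones were chosen after the data had been seen.

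The polysomal and total libraries of a culture deviated together at r = 0.17 to 0.53 in 7 cultures and -0.066 in clone 35 number 3, while 4 polysomal libraries correlated best with the total library of another culture, and without this pairing 1480 genes were higher and 4710 lower. The replicate numbers pair the cultures in the data. Deviations from the mean correlated at 0.57 to 0.70 in all 7 pairs of cultures with one number and at -0.64 to 0.34 in 14 pairs with different numbers. The labels do not say what a number marks. Taking the mean per number as 3 replicates, 201 genes were higher, 2535 lower and 49 at least 2-fold higher, and 44 of the 130 named genes that had passed the test no longer did. With the correlation within numbers estimated, 764 were higher. With the replicate block, 2407 were higher, 5612 lower, 78 at least 2-fold higher and 1829 at least 2-fold lower. The block also gave 50 genes for R98S against WT, where a pseudocount of 5 gave 2. Counts at mean thresholds of 10 over the 8 libraries, of 50 and without a filter covered 10631, 9488 and 17909 genes and stayed within 1.5 times.

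Leaving out a number, a clone or a culture gave 883 to 2022 genes higher, 3879 to 4953 lower, 17 to 531 at least 2-fold higher and 1230 to 2447 at least 2-fold lower. The lowest values for higher genes came without number 3. The test over numbers called 1426 to 5742 genes, with 1426 when number 3 was left out. Without clone 11, 1107 genes were higher, and without clone 35, 948. Without clone 13, 172 were at least 2-fold higher.

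Among named genes, the sign turned with quantile normalization for Ddx49 (0.11), Mrps24 (0.064), Slc11a2 (0.054) and Cdc14a (0.057), and with the length trend removed for Tmf1 (0.24), Polr2b (0.60), Psme4 (0.96), Sdha (0.022), Slc11a2 (0.042), Cdc14a (0.11) and Csf2rb (0.014). Leaving out a number moved Mif between -0.068 and 1.38, Nop10 between -0.089 and 1.37 and Rpl15 between -0.013 and 0.76, each negative without number 3 and highest without number 1. The cause was not tested.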
